A study of Arabidopsis thaliana with 4 samples.

Results

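The seedlings compared here were upf1-5 mutants of Arabidopsis thaliana and their wild type (WT), the accession Columbia-0 (Col-0). The members were the annotated genes with a line for this pair in the deposited table that reached 1 FPKM in either library. FPKM is a count of sequenced fragments scaled to the length of the transcript and to the mapped total of the library. They numbered 18687 of the 20082 annotated genes listed for the pair, and their highest values began at 1.001 FPKM, while those of the genes left out ended at 0.9996 FPKM. The pair held 21072 loci with the unannotated ones, and the whole series 22409.

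RNA was sequenced from 4 genotypes, upf1-5, upf3-1, the upf1-5 upf3-1 double mutant and WT, to look for genes behind the late flowering of mutants in nonsense-mediated mRNA decay. Each genotype was a pool of whole seedlings on plates of 1/2 MS medium under long days at 23 °C, taken at ZT 16, and gave 1 library. The upf1-5 plants carry the T-DNA insertion of the line SALK_112922 in UPF1, AT5G47010, in the Col-0 background, and no chemical or other treatment separated them from WT. Because no genotype has a replicate, no difference below has a replicate check, and a gene is called higher or lower only when its values are at least 2-fold apart.

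Nonsense-mediated mRNA decay (NMD) is a surveillance pathway that removes mRNAs on which translation ends too early or in an unusual context. The RNA helicase UPF1 is its central factor: with UPF2 and UPF3 it recognises a ribosome stopped upstream of an exon junction or far from the poly(A) tail and leads the mRNA to decay. In plants the pathway also acts on normal transcripts with a long 3′ UTR, an intron after the stop codon or an upstream open reading frame, and NMD mutants are known for activated immune responses and growth defects.

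The targeted gene was measured first. UPF1 had 3.18 FPKM in upf1-5 and 23.9 FPKM in WT. The nearest measured genes on chromosome 5 (AT5G46920, AT5G47020, AT5G47030 and LON2) had upf1-5 over WT ratios of 0.97, 0.72, 1.06 and 0.65. The median annotated gene had 15.1 FPKM in upf1-5 and 15.0 FPKM in WT, the median log2 ratio was 0, and the 75th percentiles were 36.6 FPKM in upf1-5 and 36.8 FPKM in WT. The depth of the libraries is unknown here, and with it the error of single FPKM values. Markers fitted green seedlings with roots: the summed level of the 5 green shoot genes was 24129 FPKM in upf1-5 and 28514 FPKM in WT, and that of the 6 root genes 44.6 FPKM in upf1-5 and 47.3 FPKM in WT. Of the 4 flower genes, AP3 and PI were listed, while AG and AP1 had no line. PI had 0.483 FPKM in upf1-5 and 4.61 FPKM in WT, past 2-fold lower. AP3 went the other way, with 0.260 FPKM in upf1-5 and 0.108 FPKM in WT. Of the 5 seed genes, CRU3 alone was listed, at 0.0807 FPKM in upf1-5 and 0.267 FPKM in WT. In pooled seedlings, fewer cells of a type and less RNA per cell cannot be told apart.

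Across the 18687 genes, 1294 were at least 2-fold higher in upf1-5 than in WT, which is 6.92% of all, and 360 were at least 2-fold lower, which is 1.93%. The genes nearest to the limit were AT3G14780 and AT5G63160, with a 1.99-fold difference, and AT3G51060 and AT2G04845, with a 2.00-fold one. Most differences were small in size: the median was 2.73-fold among the higher genes and 2.69-fold among the lower ones, with 314 higher and 85 lower past 4-fold and 54 higher and 16 lower past 10-fold. Weakly expressed genes gave most of the calls. Of all 18687 genes, 708 reached 1 FPKM in upf1-5 alone and 268 in WT alone. When the genes were split into 4 equal classes by mean level, 19.6% were higher and 5.61% lower in the lowest class, with a median of 2.77 FPKM, and in the highest class, with a median of 74.0 FPKM, 1.26% were higher and 0.621% lower. Of the higher genes, 721 stayed below 5 FPKM in both libraries and 29 reached 100 FPKM in at least 1. When only the 15151 genes with 5 FPKM or more in at least 1 library were counted, 573 were higher (3.78%) and 135 were lower (0.891%). The share called thus moves with the level of a gene, so for most classes the count at 5 FPKM or more is given beside the first one.

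**Figure D1:**
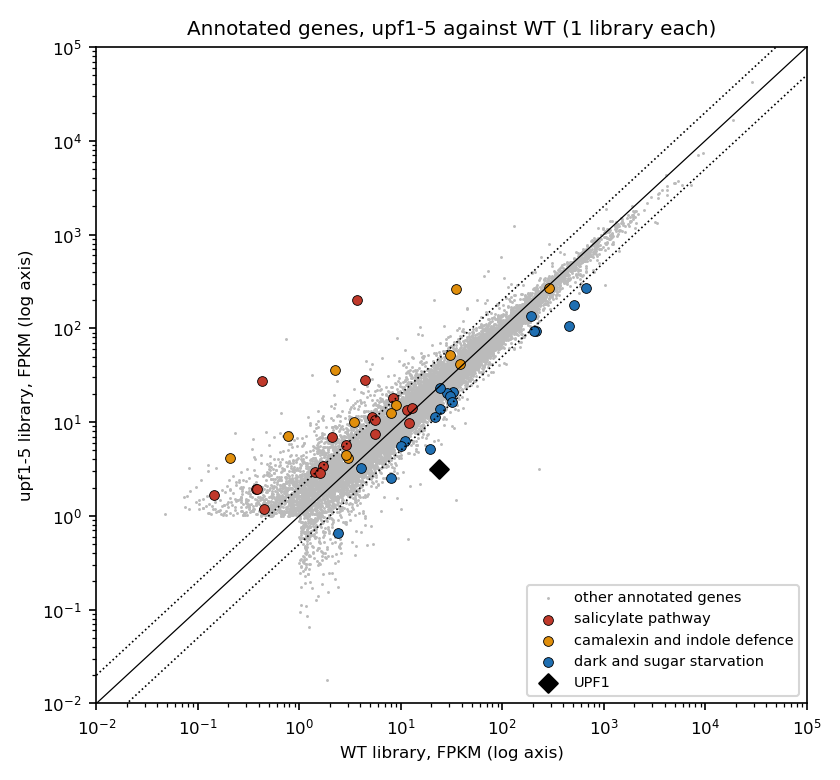
FPKM of each annotated gene in upf1-5 (y axis, log scale) against WT (x axis, log scale), with 1 point for each of 18680 genes (7 with a value below the axes are left out), dotted lines at a 2-fold difference, and UPF1 and the members of the salicylic acid, camalexin and starvation lists in colour. The 1294 genes above the upper line outnumber the 360 below the lower one, and both sets are widest at low FPKM.

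AT4G12490, a lipid-transfer-like protein, had 76.0 FPKM in upf1-5 and 0.732 FPKM in WT, the largest rise among genes at 5 FPKM or more when 1 FPKM is added to both values for the ranking. PCC1, a small membrane protein known for its induction by pathogens and by the clock, had 201 FPKM in upf1-5 and 3.72 FPKM in WT. LURP1, which is needed for resistance to downy mildew, had 27.3 FPKM in upf1-5 and 0.427 FPKM in WT. All 3 were below 5 FPKM in WT seedlings. The lectin-like gene AT5G03350 had 27.3 FPKM in upf1-5 and 2.36 FPKM in WT. AT3G18250, whose role is not described here, had 12.5 FPKM in upf1-5 and 0.658 FPKM in WT. AT3G22235, which lies beside PCC1, had 198 FPKM in upf1-5 and 21.3 FPKM in WT. Among abundant transcripts, the uncharacterized AT5G42530 had 1237 FPKM in upf1-5 and 131 FPKM in WT. AT2G25510, also uncharacterized, had 576 FPKM in upf1-5 and 96.3 FPKM in WT. EXT3, an extensin of the cell wall, had 789 FPKM in upf1-5 and 286 FPKM in WT. CML10, a calmodulin-like calcium sensor, had 342 FPKM in upf1-5 and 105 FPKM in WT.

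Secreted defence proteins (pathogenesis-related proteins, chitinases, thaumatin-like proteins, defensins and basic secretory proteins, taken from the deposited gene descriptions) had the largest share of higher genes of any class with at least 40 members. Of 72 genes, 25 were higher in upf1-5 (34.7%) and 5 lower, and at 5 FPKM or more 22 of 58 were higher. OSM34, an osmotin of the thaumatin-like family, had 48.2 FPKM in upf1-5 and 6.53 FPKM in WT. TI1, a defensin-like trypsin inhibitor, had 105 FPKM in upf1-5 and 26.7 FPKM in WT. Chitinases, which cut the chitin of fungal walls, made up much of the group. AT2G43620 had 78.3 FPKM in upf1-5 and 9.11 FPKM in WT. Its neighbour AT2G43590 had 69.6 FPKM in upf1-5 and 24.1 FPKM in WT, and CHI had 19.3 FPKM in upf1-5 and 2.18 FPKM in WT. These stand in a run of 5 neighbouring genes, CHI to AT2G43620, all of them higher in upf1-5. The acidic endochitinase CHIA had 13.2 FPKM in upf1-5 and 1.52 FPKM in WT. The jasmonate-responsive defensins did not follow: PDF1.2 had 7.78 FPKM in upf1-5 and 9.56 FPKM in WT, and PDF1.3 had 7.49 FPKM in upf1-5 and 18.5 FPKM in WT. These defensins are near-identical copies, so reads could be shared among them.

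The salicylic acid list held 20 genes of its synthesis, signalling and response, of which 19 passed 1 FPKM. Salicylic acid is the hormone of resistance to pathogens that feed on living tissue. Of these 19 genes 11 were higher in upf1-5, 0 were lower, and 18 had a ratio above 1, with a median ratio of 2.13. Over all genes 6.92% were higher. Of the 11, SARD1, PR2, LURP1, FMO1 and ALD1 were below 1 FPKM in WT, so they entered the set through upf1-5 alone. The salicylic acid list was chosen after values of its genes were seen, so its counts only describe it. ICS1, which makes the isochorismate from which the hormone derives, had 11.2 FPKM in upf1-5 and 5.24 FPKM in WT. PBS3, the enzyme of the next step in the cytosol, had 2.91 FPKM in upf1-5 and 1.42 FPKM in WT. SARD1, an activator of ICS1, had 1.93 FPKM in upf1-5 and 0.374 FPKM in WT. Not all genes of synthesis reached 2-fold: EDS5, the transporter that exports isochorismate from the plastid, had 7.37 FPKM in upf1-5 and 5.59 FPKM in WT, and CBP60G, another activator of ICS1, had 5.63 FPKM in upf1-5 and 2.86 FPKM in WT. In signalling, PAD4 had 17.97 FPKM in upf1-5 and 8.43 FPKM in WT. Its partners did not reach 2-fold: EDS1 had 13.6 FPKM in upf1-5 and 11.6 FPKM in WT, and SAG101 had 9.75 FPKM in upf1-5 and 12.1 FPKM in WT. The hormone receptor NPR1 had 14.2 FPKM in upf1-5 and 12.8 FPKM in WT. Of the response genes, WRKY70 had 28.0 FPKM in upf1-5 and 4.40 FPKM in WT, and its relative WRKY54 had 6.99 FPKM in upf1-5 and 2.09 FPKM in WT. The marker genes of the late response were low in both libraries: PR1 had 2.86 FPKM in upf1-5 and 1.60 FPKM in WT, PR2 had 1.18 FPKM in upf1-5 and 0.447 FPKM in WT, and PR5 had 10.5 FPKM in upf1-5 and 5.63 FPKM in WT. FMO1 and ALD1, which make the mobile signal of systemic resistance, had 1.93 and 1.66 FPKM in upf1-5 and 0.381 and 0.145 FPKM in WT. At 5 FPKM or more in at least 1 library 6 genes of the list were higher, where 3.78% of all genes were. PCC1, LURP1, WRKY70 and WRKY54 met that minimum through upf1-5 alone.

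Genes of the tryptophan-derived defence compounds and of the first response to microbes moved in part. Of 12 genes on this list 5 were higher in upf1-5, 0 were lower, and the median ratio was 1.69, where 6.92% of all genes were higher. This list too was chosen after values of its genes were seen, so its counts only describe it. FOX1 and FRK1 were below 1 FPKM in WT and entered the set through upf1-5 alone. CYP71A12, an enzyme of the camalexin and indole carbonyl branch, had 35.7 FPKM in upf1-5 and 2.23 FPKM in WT. GSTF6, a glutathione transferase of camalexin synthesis, had 265 FPKM in upf1-5 and 35.3 FPKM in WT, and its neighbour GSTF7 had 365 FPKM in upf1-5 and 65.5 FPKM in WT, though the 2 genes are close copies and could share reads. CYP81F2, which modifies indole glucosinolates, had 10.1 FPKM in upf1-5 and 3.44 FPKM in WT. FOX1, an oxidase of the indole cyanogenic branch, had 7.02 FPKM in upf1-5 and 0.768 FPKM in WT. FRK1, a receptor-like kinase used as a marker of the response to bacterial flagellin, had 4.11 FPKM in upf1-5 and 0.209 FPKM in WT. The enzymes that camalexin itself requires changed less. CYP71A13 had 4.10 FPKM in upf1-5 and 3.03 FPKM in WT, and CYP71B15 (PAD3), the last enzyme, had 4.44 FPKM in upf1-5 and 2.86 FPKM in WT. GGP1, which acts between them, had 270 FPKM in upf1-5 and 289 FPKM in WT.

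**Figure D2:**
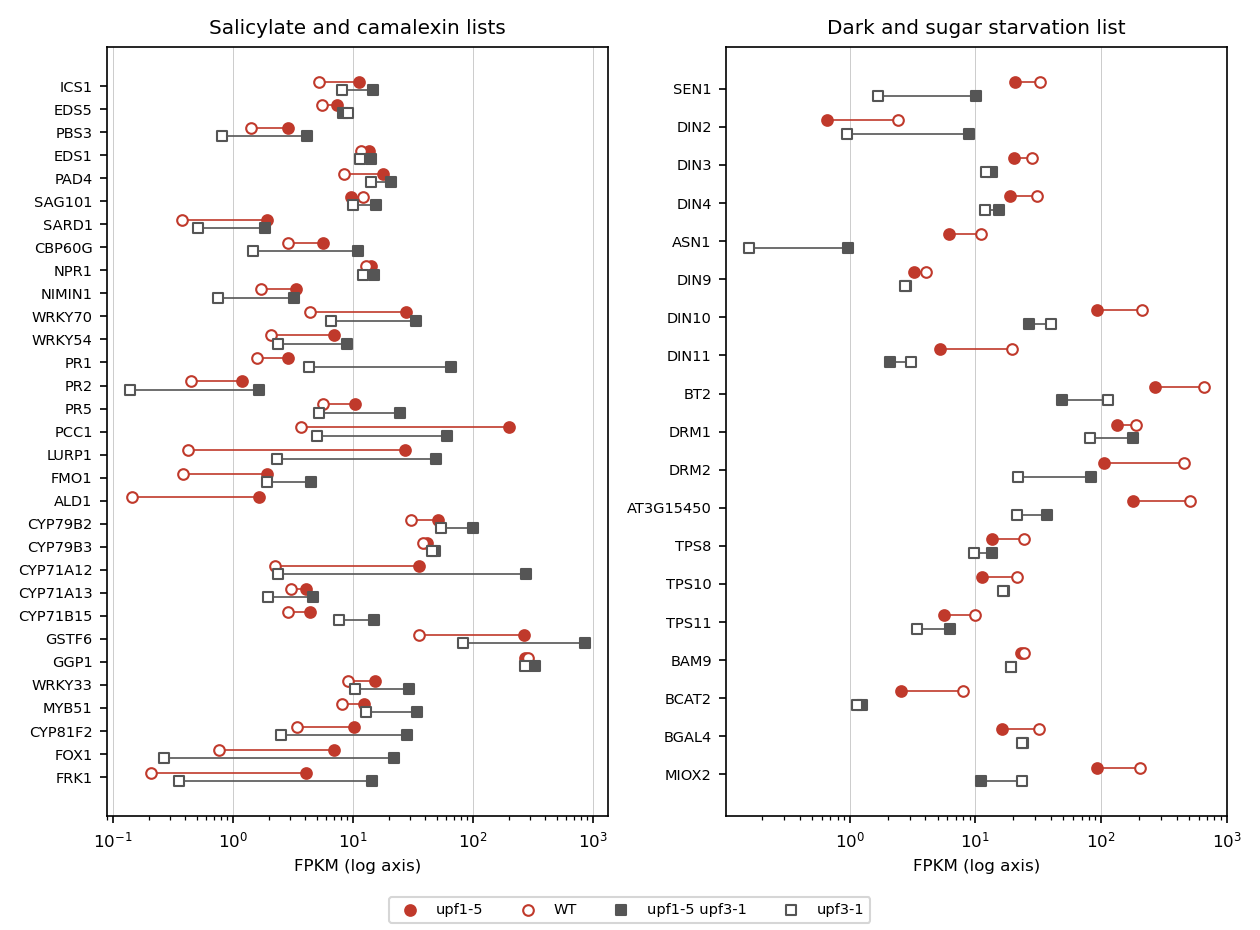
FPKM (x axis, log scale) of each gene of the salicylic acid and camalexin lists (left) and of the dark and sugar starvation list (right) in the 4 libraries, 1 point for each library, with a line joining upf1-5 to WT (circles) and upf1-5 upf3-1 to upf3-1 (squares). In 18 of 19 salicylic acid genes the upf1-5 point lies above the WT point, and in 19 of 19 starvation genes it lies below. The lists were chosen after values of their genes were seen.

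The upstream sequences of 4 of these defence genes are shown because they hold a W box, the site that WRKY factors bind, here read as TTGACC or TTGACT on either strand. The genes were chosen after their values were seen. Each sequence is the 200 bases before the RefSeq gene start, read 5′ to 3′ along the gene from TAIR10.1, with W boxes in capitals. The FRK1 window is chr2:8329945-8330144 on the minus strand, that of FOX1 is chr1:9128569-9128768 on the minus strand, that of CYP81F2 is chr5:23187640-23187839 on the plus strand, and that of AT2G43620 is chr2:18095094-18095293 on the minus strand. No other annotated gene lies in these windows.
FRK1: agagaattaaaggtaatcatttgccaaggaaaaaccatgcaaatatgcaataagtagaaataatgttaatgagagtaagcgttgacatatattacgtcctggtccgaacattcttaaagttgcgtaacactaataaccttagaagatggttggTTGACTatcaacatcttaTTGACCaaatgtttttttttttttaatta
FOX1: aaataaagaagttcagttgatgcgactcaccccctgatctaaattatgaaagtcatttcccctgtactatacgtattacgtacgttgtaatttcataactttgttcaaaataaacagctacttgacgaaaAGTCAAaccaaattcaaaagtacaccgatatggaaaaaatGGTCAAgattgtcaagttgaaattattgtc
CYP81F2: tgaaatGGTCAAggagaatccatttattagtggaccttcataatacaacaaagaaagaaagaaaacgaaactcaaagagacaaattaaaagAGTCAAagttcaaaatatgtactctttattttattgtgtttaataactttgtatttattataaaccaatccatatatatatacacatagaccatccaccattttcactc
AT2G43620: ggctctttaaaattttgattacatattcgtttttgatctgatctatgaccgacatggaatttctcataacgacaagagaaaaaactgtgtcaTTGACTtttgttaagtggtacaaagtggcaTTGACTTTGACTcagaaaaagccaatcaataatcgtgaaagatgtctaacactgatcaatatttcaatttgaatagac

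FRK1 has a match beginning 47 bases and another 29 bases before its start, and AT2G43620 has 3, of which 2 adjoin each other at 78 and 72 bases. The windows of PCC1, LURP1, WRKY70, CYP71A12 and AT4G12490 hold no match of these letters, which says nothing about binding elsewhere. Over all 18609 genes with a window, 24.1% hold at least 1 match. The share was 29.6% among the genes higher in upf1-5, 35.5% among those past 4-fold, and 24.1% among the genes lower in upf1-5. Of the secreted defence proteins 37.5% hold one, of the camalexin list 6 of 12, and of the salicylic acid list 3 of 19. A match is a string of letters and not a measured site.

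Families of transcription factors differed in how often they were called. Of 58 WRKY genes 13 were higher in upf1-5 (22.4%) and 1 was lower, and at 5 FPKM or more 7 of 38 were higher. After WRKY70, WRKY51 had 4.76 FPKM in upf1-5 and 0.642 FPKM in WT, and WRKY53, a regulator of leaf senescence, had 14.3 FPKM in upf1-5 and 5.95 FPKM in WT. Of 58 NAC genes 9 were higher and 0 lower, and at 5 FPKM or more 4 of 34 were higher. NAC042 (JUNGBRUNNEN 1), which delays senescence, had 7.82 FPKM in upf1-5 and 0.809 FPKM in WT, and NAC047 had 9.53 FPKM in upf1-5 and 3.50 FPKM in WT. Of 107 MYB genes 15 were higher and 1 lower, and at 5 FPKM or more 6 of 70 were higher. The activators of anthocyanin synthesis were among them: MYB90 had 9.27 FPKM in upf1-5 and 1.27 FPKM in WT, and PAP1 had 4.89 FPKM in upf1-5 and 1.49 FPKM in WT. ERF factors, which carry ethylene and stress responses, had 7 of 79 higher (8.86%) and 4 lower (5.06%), and 2 of 50 higher and 1 lower at 5 FPKM or more. GSTF12, the transferase needed to carry anthocyanins into the vacuole, had 13.2 FPKM in upf1-5 and 4.52 FPKM in WT. Of the immune receptors of the NLR type, 8 of 87 were higher (9.20%) and 0 lower, and at 5 FPKM or more 3 of 52 were higher with a median log2 ratio of −0.01. Receptor-like proteins and cysteine-rich receptor kinases had 7 of 50 higher and 0 lower, and 2 of 29 higher at 5 FPKM or more, where their median log2 ratio was −0.04.

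Class III peroxidases, which make and use hydrogen peroxide in the cell wall, were above WT in most members. Of 53 genes 17 were higher in upf1-5 (32.1%) and 0 were lower, 46 had a higher FPKM in upf1-5 than in WT, and the median log2 ratio was 0.61. PER71 had 188 FPKM in upf1-5 and 68.2 FPKM in WT, and PRXCB, a peroxidase of the oxidative burst, had 101 FPKM in upf1-5 and 37.5 FPKM in WT. PER4 had 14.3 FPKM in upf1-5 and 3.48 FPKM in WT. At 5 FPKM or more 10 of 42 were higher. Many of these genes are best known from roots, and the root markers beside them were mixed: SCR had 20.2 FPKM in upf1-5 and 22.4 FPKM in WT, SHR 9.21 FPKM in upf1-5 and 7.27 FPKM in WT, and TIP2;3 9.11 FPKM in upf1-5 and 13.1 FPKM in WT. The root hair and tip markers were low: EXPA7 had 3.94 FPKM in upf1-5 and 3.202 FPKM in WT, COBL9 1.07 FPKM in upf1-5 and 0.979 FPKM in WT, and PLT1 1.13 FPKM in upf1-5 and 0.345 FPKM in WT. Whether the amount of root tissue had a part in the result was not tested.

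Other cell wall and detoxifying families were called more often than all genes as well. Among glycine-rich, proline-rich and arabinogalactan proteins, 35 of 213 were higher and 6 lower, and among pectin enzymes 17 of 103 were higher and 3 lower. With 5 FPKM or more these numbers were 19 higher and 2 lower of 164, and 6 higher and 1 lower of 71. The extensin gene EXT4 had 275 FPKM in upf1-5 and 115 FPKM in WT, and the extensin-like AT2G43150 had 571 FPKM in upf1-5 and 243 FPKM in WT. Of 56 lipid transfer proteins 10 were higher and 2 lower, with a median log2 ratio of 0.51, and at 5 FPKM or more 8 of 47 were higher. LTP8 had 66.7 FPKM in upf1-5 and 20.1 FPKM in WT. Of 47 glutathione transferases 10 were higher and 0 lower, though the median log2 ratio of the family was 0.08, so the calls came from a minority of it, and at 5 FPKM or more 8 of 43 were higher. Apart from GSTF6 and GSTF7, GSTU22 had 24.6 FPKM in upf1-5 and 5.93 FPKM in WT. Cytochrome P450 enzymes (18 of 123 higher, 5 lower) and UDP-glycosyltransferases (12 of 65 higher, 2 lower) had medians of 0.06 and 0.10 on the log2 scale. Among those at 5 FPKM or more, 8 of 81 cytochrome P450 enzymes were higher, with a median of −0.08, and 2 of 39 UDP-glycosyltransferases.

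**Figure D3:**
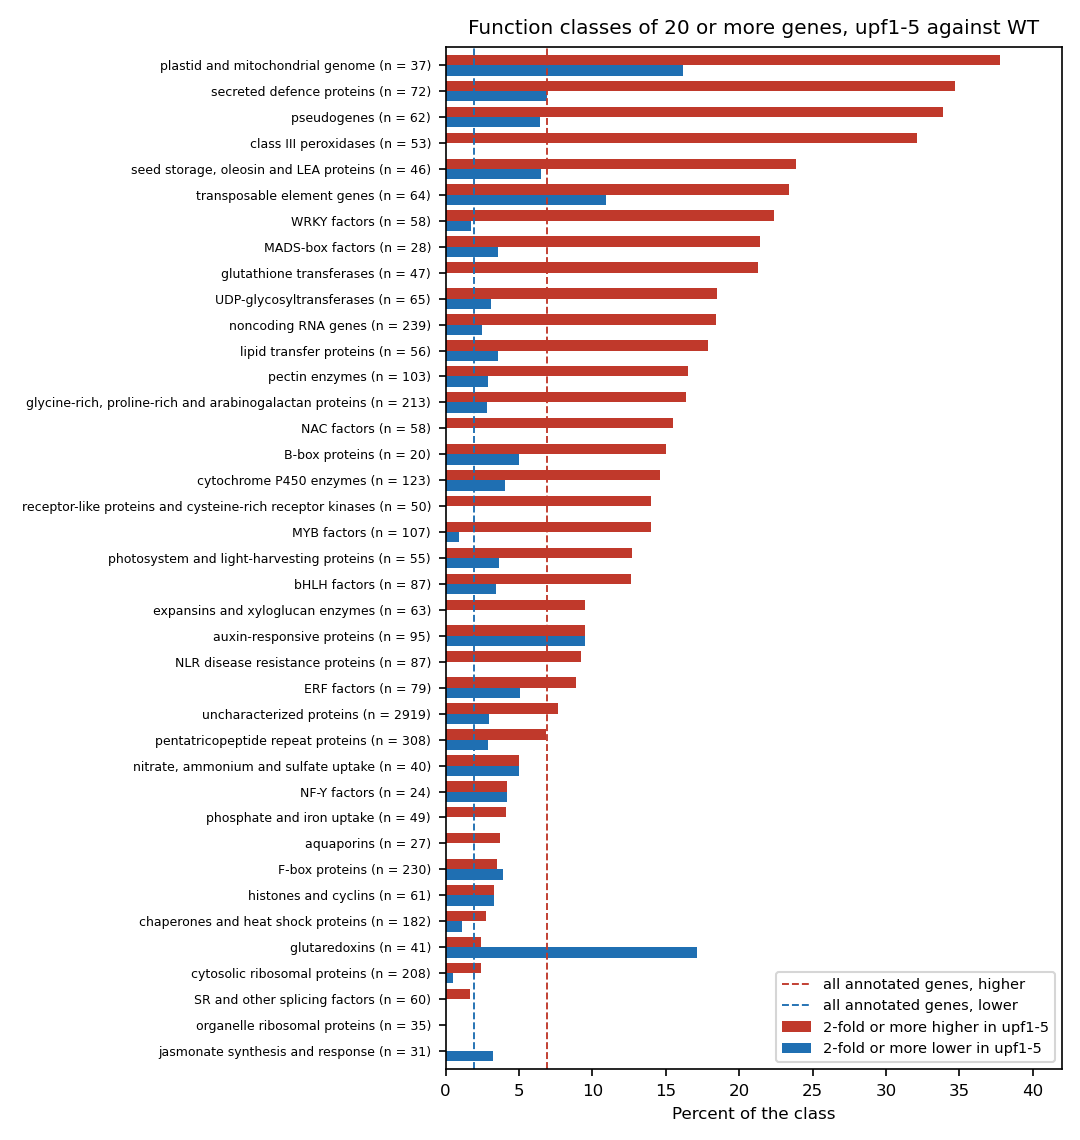
Percent of the genes of each function class with 20 or more members that were at least 2-fold higher and at least 2-fold lower in upf1-5 than in WT, with the shares of all annotated genes (6.92% higher and 1.93% lower) as lines. Organelle-encoded genes (37.8%), secreted defence proteins (34.7%) and class III peroxidases (32.1%) are among the 4 longest bars for higher genes, and glutaredoxins (17.1%) have the longest bar for lower genes.

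Fewer genes were lower, and the largest falls did not share 1 function. AT2G01422, a locus with no description, had 3.13 FPKM in upf1-5 and 230 FPKM in WT. AT4G01040 had 0.562 FPKM in upf1-5 and 11.8 FPKM in WT, and AT4G15990 had 2.16 FPKM in upf1-5 and 15.3 FPKM in WT. AT1G66910, a protein kinase gene, had 1.17 FPKM in upf1-5 and 10.1 FPKM in WT. Among abundant transcripts GRP3S, a glycine-rich protein, had 3374 FPKM in upf1-5 and 7254 FPKM in WT. LHB1B1, a light-harvesting protein of photosystem II, had 237 FPKM in upf1-5 and 565 FPKM in WT. It is one of several near-identical copies that could share reads. The class of photosystem and light-harvesting proteins held 7 higher (12.7%, against 6.92% of all genes) and 2 lower (3.64%, against 1.93%) of 55. Its median log2 ratio was −0.14, and 22 of the 55 were above WT. The largest rises in it, PSBA, PSBD and PSBC, were transcripts of the plastid genome, whose capture is not settled here. Of the 2 lower genes, PSBK was of the plastid genome too.

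Genes that rise in darkness and sugar starvation lay below WT. The list was chosen after values of these genes were seen, so its counts only describe it. Its member DIN2 was below 1 FPKM in upf1-5 and entered the set through WT alone. All 19 measured genes of this list had a ratio below 1, with a median ratio of 0.524 where all genes had a median log2 ratio of 0, and 8 were lower and 0 higher by the 2-fold limit. The dormancy-associated DRM2 had 105 FPKM in upf1-5 and 456 FPKM in WT. BT2, a scaffold protein of nutrient and sugar responses, had 268 FPKM in upf1-5 and 665 FPKM in WT. AT3G15450, an aluminium-induced protein, had 179 FPKM in upf1-5 and 511 FPKM in WT. All 3 remained abundant in the mutant. DIN10, a raffinose-type sugar enzyme, had 93.0 FPKM in upf1-5 and 214 FPKM in WT, and DIN11 had 5.21 FPKM in upf1-5 and 19.6 FPKM in WT. BCAT2, which acts on branched-chain amino acids, had 2.56 FPKM in upf1-5 and 8.01 FPKM in WT, and MIOX2, an inositol oxygenase, had 92.5 FPKM in upf1-5 and 205 FPKM in WT. ASN1, an asparagine synthetase induced in the dark, did not reach 2-fold, with 6.21 FPKM in upf1-5 and 11.1 FPKM in WT. All plants were sampled at the same time of day, and the clock genes gave 1 higher and 1 lower of 17: RVE8 had 15.2 FPKM in upf1-5 and 6.02 FPKM in WT, and CCA1 had 0.524 FPKM in upf1-5 and 2.26 FPKM in WT. Whether the phase of the clock or the light had a part in the result was not tested.

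Glutaredoxins, small proteins that reduce disulfides with glutathione, were lower in 7 of 41 genes (17.1%) and higher in 1. A cluster of neighbouring monothiol genes on chromosome 4 supplied 5 of the 7. GRXS3 had 9.75 FPKM in upf1-5 and 43.3 FPKM in WT, GRXS5 had 9.04 FPKM in upf1-5 and 31.7 FPKM in WT, and GRXS4 had 15.2 FPKM in upf1-5 and 35.5 FPKM in WT. GRXS8 had 4.96 FPKM in upf1-5 and 13.99 FPKM in WT, and GRXS7 had 2.96 FPKM in upf1-5 and 10.5 FPKM in WT. These copies are close in sequence and could share reads, so they are better counted as 1 locus than as 5 independent genes. At 5 FPKM or more 6 of 33 were lower and 0 higher.

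Several classes were called higher less often than all genes, or about as often. Cytosolic ribosomal proteins had 5 of 208 higher and 1 lower, with a median log2 ratio of −0.03, and organelle ribosomal proteins encoded in the nucleus had 0 of 35 in either direction and a median of −0.23. SR and other splicing factors, many of which make NMD-sensitive splice forms, had 1 of 60 higher and 0 lower at the level of the whole gene. Chaperones had 5 of 182 higher and 2 lower, F-box proteins 8 of 230 higher and 9 lower, and pentatricopeptide repeat proteins 21 of 308 higher and 9 lower. The shares of lower genes in these last classes, 3.91% and 2.92%, were above that of all genes, but at 5 FPKM or more 3 of 172 F-box and 0 of 142 pentatricopeptide repeat genes were lower. Jasmonate genes had 0 of 31 higher and 1 lower. Auxin-responsive proteins were called more often than all genes and in both directions equally, with 9 of 95 higher and 9 lower (9.47% each), and with 5 of 68 higher and 2 lower at 5 FPKM or more. In the cold list, also chosen after values of its genes were seen, 2 of 6 measured genes were higher. COR15A, a chloroplast protein that protects membranes in frost, had 42.1 FPKM in upf1-5 and 5.15 FPKM in WT. COR15B had 63.3 FPKM in upf1-5 and 29.6 FPKM in WT. COR47, of the same response, had 157 FPKM in upf1-5 and 164 FPKM in WT. In the small class of flowering integrators and FLC clade genes, 4 of 13 were higher (30.8%) and 0 lower, and 3 of 11 were higher at 5 FPKM or more (27.3%).

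The decay machinery itself was mostly level. Of 15 NMD and exon junction genes 2 were higher and 1, UPF1, was lower. ERF1-1, a release factor that recognises stop codons, had 77.2 FPKM in upf1-5 and 27.7 FPKM in WT. It has an annotated exon junction in the 3′ UTR, 130 nt behind the stop codon. UPF3 had 33.7 FPKM in upf1-5 and 20.8 FPKM in WT, short of 2-fold, and UPF2 had 16.5 FPKM in upf1-5 and 17.6 FPKM in WT.

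The annotated features of NMD targets were read from the RefSeq model with the longest coding sequence for 18209 protein-coding genes. Genes whose coding sequence ends over 50 nt before a last exon junction were higher in upf1-5 in 16 of 317 cases (5.05%), against 6.53% of the genes without one. With a 3′ UTR of 350 nt or more, 185 of 4402 were higher (4.20%), against 7.24% without. With an upstream open reading frame of 35 codons or more, 182 of 3086 were higher (5.90%), against 6.63% without. None of the 3 features had the larger share over all genes. Within the 4 classes of level, the genes with a junction had the smaller share in the 3 lower classes, at 12.5%, 3.70% and 1.28% against 19.3%, 4.09% and 1.97% without. In the highest class 2 of 78 genes with a junction were higher (2.56%), against 1.15% without, and ERF1-1 was among them. In that class the genes with a long 3′ UTR (0.746%, against 1.35%) and with an upstream open reading frame (1.03%, against 1.20%) had the smaller share, and so had those with a junction in the double mutant over upf3-1 (1.28%, against 1.48%). At 5 FPKM or more the share over all genes with a junction was 3.76%, against 3.43% without. The median log2 ratio was 0.08 with a junction and 0 without, and −0.01 with a long 3′ UTR and 0 without. With and without an upstream open reading frame the median was 0. From the lowest class of level to the highest it was 0.28, 0.10, 0 and −0.01 with a junction. Without a junction it was 0.25, 0.01, −0.04 and −0.10. Of the less abundant genes with a junction, ChiC, a chitinase with a junction at 213 nt, had 12.7 FPKM in upf1-5 and 4.36 FPKM in WT, and AT3G45443, with one at 98 nt, had 48.6 FPKM in upf1-5 and 23.0 FPKM in WT. A gene total sums all splice forms, so a change of 1 form is not seen in it.

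**Figure D4:**
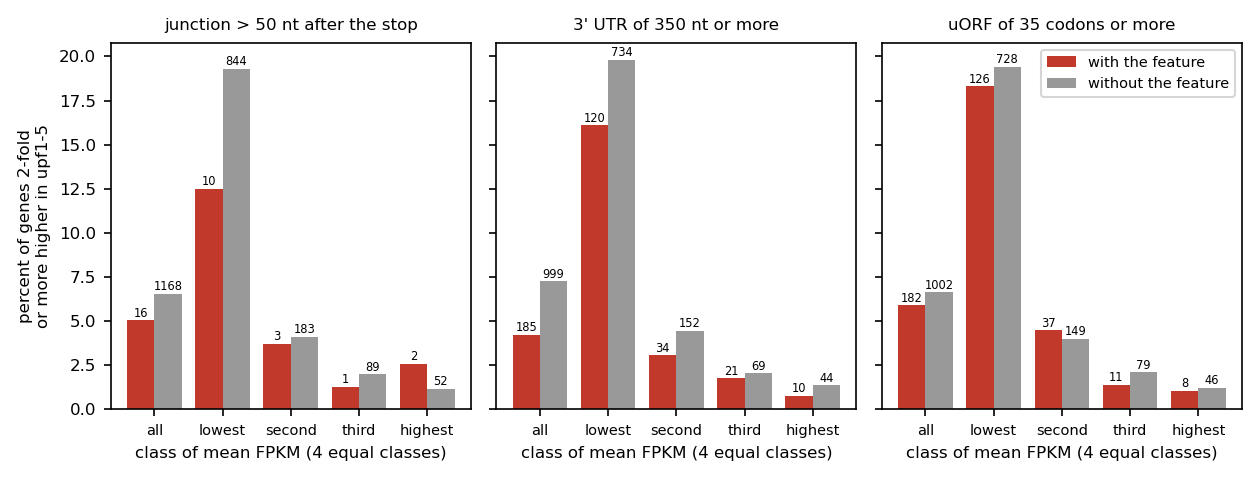
Percent of protein-coding genes at least 2-fold higher in upf1-5 than in WT, by class of mean FPKM (4 equal classes, lowest to highest), for genes with and without each annotated NMD feature, with the number of higher genes above each bar. In the highest class 2.56% of the genes with a junction after the stop codon were higher and 1.15% of those without, from 2 of 78 genes, while in the 3 other classes the share was smaller with the junction.

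Genes that do not code for proteins were higher more often. Of 146 lncRNA genes 28 were higher (19.2%) and 3 lower, of 102 other ncRNA genes 23 were higher (22.5%) and 5 lower, and of 72 transcribed pseudogenes 25 were higher (34.7%) and 6 lower, against 6.50% higher of the 18209 protein-coding genes. Of 68 other pseudogenes 16 were higher (23.5%) and 8 lower. These genes were also lower more often, at 2.05%, 4.90%, 8.33% and 11.8% in the same order, against 1.81% of protein-coding genes. The difference in the share of higher genes was present in each of the 4 classes of level: 27.5%, 20.2%, 30% and 8.70% of noncoding genes and pseudogenes were higher, from the lowest class to the highest, against 19.2%, 4.08%, 1.96% and 1.17% of protein-coding genes. The shares of lower genes were 10.4%, 1.01%, 0% and 2.17%, against 5.30%, 1.03%, 0.413% and 0.586%. AT4G04223, an RNA gene with no known function here, had 103 FPKM in upf1-5 and 15.6 FPKM in WT. AT1G69252 had 395 FPKM in upf1-5 and 196 FPKM in WT. Strand-specific counting is not stated in the sources used here, so reads of a noncoding gene and of an overlapping gene on the other strand cannot be told apart. Transcripts encoded in the plastid and mitochondria gave 14 of 37 higher and 6 lower. PSBA, the D1 protein of photosystem II, had 198 FPKM in upf1-5 and 56.5 FPKM in WT, while PSAJ of photosystem I had 1376 FPKM in upf1-5 and 3192 FPKM in WT. Organelle transcripts mostly lack a poly(A) tail, and the labels name an mRNA kit where the methods name removal of ribosomal RNA from total RNA, so how they were captured is not settled here.

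Gene structure differed as well, in part with level. Single-exon genes made up 22% of the higher and 38.6% of the lower protein-coding genes, and 14.5% of all. In the lowest class of level, which holds most higher genes, 19.2% of single-exon and 19.2% of other genes were higher. The shares were 4.33% and 4.05% in the second class, 3.85% and 1.73% in the third, and 1.06% and 1.18% in the highest. The shares of lower genes differed in each class, at 8.66% of single-exon and 4.21% of other genes in the lowest and 1.69% and 0.459% in the highest. The median transcript was 1387 nt among the higher, 1239 nt among the lower and 1693 nt among all protein-coding genes. Higher genes also lay next to each other: 275 of 1277 (21.5%) had a higher neighbour, against 12.5% of the other genes, and 9.94% of lower genes had a lower neighbour, against 3.60%. There were 13 runs of 3 or more higher genes. In the coordinates of TAIR10.1, the longest was the set of 5 chitinase-like genes on chromosome 2, chr2:18076166-18095093. Another held FOX1, AT1G26390, AT1G26410 and AT1G26420, 4 oxidase genes of chromosome 1 at chr1:9126737-9143336. In this run AT1G26410 had 3.51 FPKM in upf1-5 and 0.127 FPKM in WT, and AT1G26390 had 5.59 FPKM in upf1-5 and 0.952 FPKM in WT. The next, chr3:7845823-7864895, held PCC1, AT3G22235 and AT3G22240, the last with 201 FPKM in upf1-5 and 70.4 FPKM in WT. Such tandem copies share sequence, and reads could be divided among them.

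The same mutation was also measured in the upf3-1 background, as the upf1-5 upf3-1 double mutant against upf3-1, libraries that the first comparison does not use. Markers differed between the pairs. Green shoot genes summed to 12595 FPKM in the double mutant and 14161 FPKM in upf3-1, and seed genes to 30.9 and 7.54 FPKM. Root genes summed to 53.0 FPKM in the double mutant and 58.0 FPKM in upf3-1, with EXPA7 at 16.8 and 14.6 FPKM. Whether stage or tissue make-up had a part in differences between the pairs was not tested. Of 18413 genes with both values, 947 were higher in the double mutant than in upf3-1 (5.14%) and 568 lower (3.08%). Of the 1213 genes higher in upf1-5 over WT among them, 288 were also higher in the double mutant, which is 23.7% of the first list and 30.4% of the second. A further 117 of them (9.65%) were lower in the double mutant. Of the 290 lower genes 54 were lower again, which is 18.6% of the first list and 9.51% of the second, and 63 (21.7%) were higher. The higher genes were thus called higher again more often than all genes (23.7%, against 5.14%), but also lower more often (9.65%, against 3.08%). Of the lower genes 18.6% were kept, against 3.08% of all genes called lower. The share of them turned round was 21.7%, against 5.14% of all genes called higher. No test was possible in either case.

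**Figure D5:**
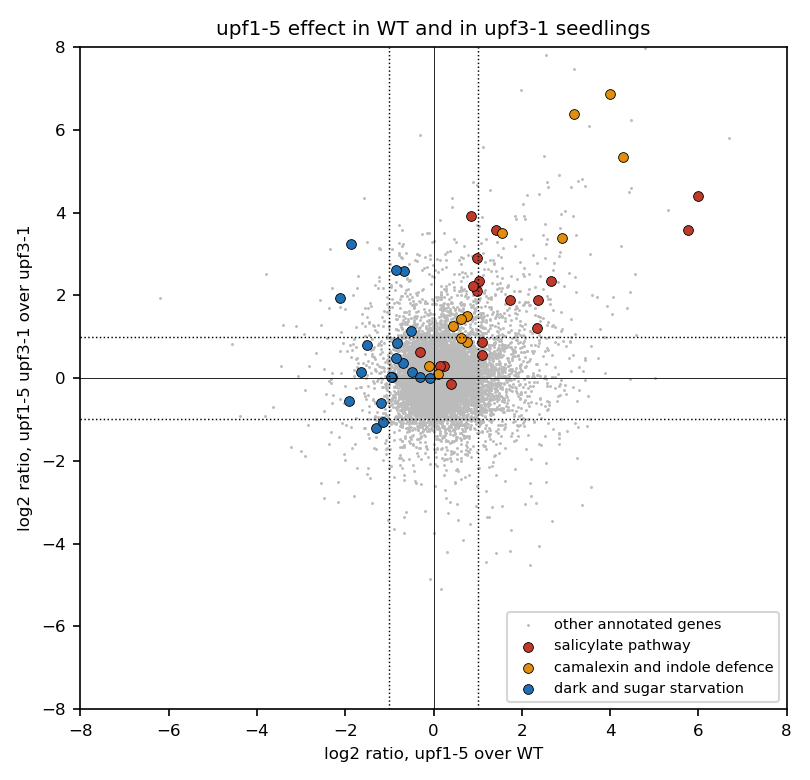
Log2 ratio of the upf1-5 upf3-1 double mutant over upf3-1 (y axis) against the log2 ratio of upf1-5 over WT (x axis), 1 point for each of 18402 genes (11 lie beyond the axes), with 2-fold limits dotted and the salicylic acid, camalexin and starvation lists in colour. The 288 genes higher in both stand in the upper right corner and the 54 lower in both in the lower left.

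The genes shared by both backgrounds included many of the defence genes above. Of the 288, 15 were secreted defence proteins (5.21%), a class that makes up 0.385% of all genes, 7 were class III peroxidases (2.43%, against 0.284%) and 6 were WRKY factors (2.08%, against 0.310%). Their windows held a W box in 43.5%, 124 of 285, and the TGACG core that TGA factors bind in 23.2%, against 16.5% of all windows. Within the salicylic acid list, chosen after its values were seen, 12 of 18 genes were higher in the double mutant, where 5.14% of all genes were. PR1 had 65.5 FPKM in the double mutant and 4.31 FPKM in upf3-1. PCC1 had 61.1 FPKM in the double mutant and 5.08 FPKM in upf3-1, and LURP1 had 49.3 FPKM in the double mutant and 2.32 FPKM in upf3-1. CYP71A12 had 276 FPKM in the double mutant and 2.39 FPKM in upf3-1, and FRK1 had 14.4 FPKM in the double mutant and 0.356 FPKM in upf3-1. AT4G12490 had 163 FPKM in the double mutant and 2.93 FPKM in upf3-1. AT4G12490, LURP1, CYP71A12 and FRK1 were named for being high in both comparisons, so that their recurrence is a matter of choice. Of the 10 largest rises of upf1-5 over WT, AT3G18250 had no value here and PDF2.1, a defensin, had 83.8 FPKM in the double mutant and 69.8 FPKM in upf3-1, short of 2-fold. Over whole classes the second comparison could differ from the first: class III peroxidases had 10 higher and 4 lower of 53 and a median log2 ratio of −0.14, and MYB factors 3 higher and 11 lower of 106.

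The starvation list did not keep its direction. In the double mutant 4 of 18 genes were higher than in upf3-1 and 2 lower, with a median ratio of 1.1. AT3G15450 had 37.1 FPKM in the double mutant and 21.4 FPKM in upf3-1, and BT2 had 49.3 FPKM in the double mutant and 114 FPKM in upf3-1. The WT library was thus the highest of the 4 for both genes. ERF1-1, at 82.1 FPKM in the double mutant and 77.4 FPKM in upf3-1, had a value in upf3-1 close to that in upf1-5. ILA, a GCN1-related protein of translational control, had 412 FPKM in upf1-5 and 72.9 FPKM in WT, but 33.7 FPKM in the double mutant and 33.7 FPKM in upf3-1. Of the glutaredoxin cluster, GRXS3, GRXS4, GRXS5 and GRXS8 were lower again, with 1.56, 2.71, 0.744 and 0.305 FPKM in the double mutant and 4.18, 6.47, 5.36 and 1.38 FPKM in upf3-1, while GRXS7 did not reach 2-fold, with 0.802 FPKM in the double mutant and 1.22 FPKM in upf3-1.

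A few members had values that no fold can describe. AT4G10600 had 2.09 FPKM in upf1-5 and is listed at 0.0016 FPKM in WT, so low that it is counted as higher but no fold is given. A further 1202 of the 21284 annotated genes of the series had no line for this pair. Of these, 606 were listed elsewhere for upf1-5 but not for WT, 95 of them at 1 FPKM or more, and 339 for WT but not for upf1-5, 38 of them at 1 FPKM or more. They are in no count above.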

How the data were processed

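RNA from pooled seedlings of each genotype was sequenced and, per the labels and methods, the authors mapped the reads to TAIR10 with TopHat and assembled and quantified them with Cufflinks. The deposited table lists each locus once for each pair of genotypes, with the authors' summed FPKM of the pair, the ratio (fold) of the higher over the lower value, its direction and a q-value. The q-values are the authors' own test and were not used. The mutant that the table calls by another name was taken as the double mutant because it was the name left over. The table has 0 unused columns of single samples.

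Both FPKM values were recovered from the sum and the fold. Checked across the pairs that share a library, 75792 values differed by at most 0.717%. Annotated genes with 1 FPKM or more in at least 1 library were kept, and 2-fold was the limit. With 1 library for each genotype no test was run; the calculations were tested on simulated data. Function classes were matched on words in the deposited gene descriptions or on gene IDs (42 classes, 12520 genes in none). The named genes were the 10 largest rises and falls at 5 FPKM or more after adding 1 FPKM, 4 NMD factors, up to 3 rises and falls in each class, the 10 largest rises and falls in FPKM, the 10 largest changes shared by both backgrounds, and the 10 most abundant higher genes with an exon junction past the stop codon. Genes of the pathway lists, and other single genes, were chosen after their values were seen, and all members and lists were chosen with earlier results of these data known. Gene models and upstream sequences came from RefSeq (TAIR10.1), matched by locus for 18610 of the 18687 genes. Alternatives were other FPKM minimums, folds, a pseudocount of 1 FPKM, rescaling, any gene model for the NMD features and, added after seeing the data, missing genes taken as 0 and 1 FPKM or more in all 4 libraries. Python 3.11.15, pandas 2.3.3, NumPy 2.4.6 and matplotlib 3.10.9 were used. Some items are not reported here.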

Additional observations from a re-analysis of the deposited data

Results flagged for a closer look

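A number of genes moved past 2-fold in opposite directions in the 2 backgrounds, and the difference between the backgrounds was not tested. The log2 ratio of upf1-5 over WT was −6.20 for AT2G01422, which had 196 FPKM in the double mutant and 50.9 FPKM in upf3-1. It was −3.11 for AT1G66910, a protein kinase gene, −2.12 for AT2G33830 (DRM2) and −1.87 for AT3G60140 (DIN2), a beta-glucosidase. DRM2 had 83.2 FPKM in the double mutant and 21.8 FPKM in upf3-1, and DIN2 had 8.97 FPKM in the double mutant and 0.948 FPKM in upf3-1. For AT2G40205, a gene for the very small ribosomal protein L41, it was −1.33, and for AT5G66053 −1.06. In the other direction, AT2G42540 (COR15A) had a log2 ratio of 3.03 and 2.36 FPKM in the double mutant against 5.72 FPKM in upf3-1.

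Some genes had a value in upf1-5 and no value for WT in the table, so they entered no comparison. AT2G01021 was listed at 18061 FPKM in upf1-5, 3115 FPKM in the double mutant and 956 FPKM in upf3-1. AT5G50562 was listed at 62.1 FPKM in upf1-5, AT4G12500, a lipid-transfer-like gene next to AT4G12490, at 15.7 FPKM, and CLE1 (AT1G73165), a small signalling peptide, at 15.6 FPKM. AT5G57567 was listed at 13.2 FPKM and the germin-like AT5G38910 at 11.2 FPKM.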

How the results depend on the processing

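The counts depend most on the minimum level and the fold. Genes higher and lower in upf1-5 than in WT numbered 1294 and 360 as reported, 761 and 190 with 1 FPKM or more in both libraries, 573 and 135 with 5 FPKM or more in at least 1, 2647 and 1108 at 1.5-fold, 314 and 85 at 4-fold, and 670 and 164 with 1 FPKM added to both values. With no minimum 1686 were higher and 553 lower. Rescaling to the same 75th percentile gave 1313 and 346, and genes missing from 1 library taken as 0, an alternative added after seeing the data, gave 1389 and 398. At 5 FPKM or more the share of higher genes was 3.43% without a junction after the stop codon, 2.55% with and 3.75% without a long 3′ UTR, and 2.95% with and 3.54% without an upstream open reading frame, and that with a junction was 3.76%. The share of higher genes that were also higher in the double mutant was 20.6% with 1 FPKM or more in all 4 libraries, added after seeing the data, against 23.7% as reported. At 5 FPKM or more in at least 1 library the share with a junction was thus the larger one, against 5.05% with and 6.53% without as reported. Class medians close to 0 changed sign at 5 FPKM or more. Those of NLR proteins (log2 −0.01), receptor-like proteins (−0.04), cytochrome P450 enzymes (−0.08), MYB factors and expansins fell below 0. That of the NMD class came above it. Rescaling did the same for nitrate, ammonium and sulfate uptake. Of the 202 named genes 34 were under 2-fold with 1 FPKM added to both values and 1 after rescaling. Of 126 counts and medians of the classes 62 moved past the limits set for them at 5 FPKM or more, 48 with the added 1 FPKM and 1 after rescaling. No paired analysis was possible because each genotype has 1 library. The lack of read totals and replicates limits all weakly expressed genes.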

Other observations

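Nuclear regulators of other processes were called as well. Of 87 bHLH factors 11 were higher in upf1-5 (12.6%) and 3 lower (3.45%), where 6.92% of all genes were higher and 1.93% lower. Of 28 MADS-box factors 6 were higher (21.4%) and 1 lower, and of 20 B-box proteins 3 were higher (15%) and 1 lower. At 5 FPKM or more, where 3.78% of all genes were higher, these were 5 of 68 bHLH, 3 of 21 MADS-box and 1 of 16 B-box genes. The median log2 ratios there were −0.06 for bHLH, 0.18 for MADS-box and −0.21 for B-box genes. AGL19 had 5.72 FPKM in upf1-5 and 1.48 FPKM in WT, and AGL14, a root MADS-box factor, had 3.80 FPKM in upf1-5 and 0.790 FPKM in WT. Among late embryogenesis abundant, oleosin and seed storage proteins 11 of 46 were higher and 3 lower, led by members related to NDR1 rather than by storage proteins: YLS9 had 6.82 FPKM in upf1-5 and 1.77 FPKM in WT, and AT1G65690 had 23.8 FPKM in upf1-5 and 8.11 FPKM in WT. Transposable element genes gave 15 of 64 higher (23.4%) and 7 lower (10.9%), and pseudogenes 21 of 62 higher (33.9%) and 4 lower (6.45%). At 5 FPKM or more 8 of 27 transposable element genes were higher and 1 lower, and 7 of 26 pseudogenes were higher and 0 lower.

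The auxin-responsive SAUR genes of chromosome 5 went different ways within 1 cluster: SAUR23 had 7.04 FPKM in upf1-5 and 1.17 FPKM in WT, SAUR22 had 0.390 FPKM in upf1-5 and 2.29 FPKM in WT, and SAUR20 had 13.5 FPKM in upf1-5 and 15.2 FPKM in WT. These copies are near-identical, and reads could be divided among them.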
